A study of Mus musculus with 367 samples.

Results

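Matrix cells of wound fibroblast character were compared between day 12 and day 15 after wounding, among single cells sorted from healing skin of Sm22-Cre;tdTomato mice. The members were chosen by measured values: a cell was taken as a matrix cell when it held at least 1000 FPKM of Col1a1, which encodes the main chain of type I collagen, less than 100 FPKM of the pericyte gene Rgs5 and less than 50 FPKM of the myeloid gene Tyrobp. At most 15% of its summed FPKM could come from mitochondrial genes, and at least 2000 genes had to be above 0. FPKM values scale each gene's sequenced fragments by the length of its transcript and by the depth of the cell. Of 276 cells from the 2 days, 150 met the rule, 78 of 159 at day 12 and 72 of 117 at day 15. The whole series, which also has cells from day 21, holds 367 cells and 204 matrix cells.

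The mice were of mixed background and, by the sample labels, 3 to 8 weeks old at wounding, while the paper's methods give a higher youngest age. They carried a Cre recombinase driven by the promoter of Tagln (also called SM22) together with a Cre-dependent tdTomato reporter. Both days share these alleles, and tdTomato marks every cell with a history of Cre activity, whether or not the promoter is still active. Viable cells with strong tdTomato signal were sorted from large excisional back wounds and loaded on Fluidigm C1 chips, which isolate single cells in microfluidic chambers. Wound tissue of 2 to 3 animals was pooled per time point. Day 12 has 3 captures (PWD12 captures 1 to 3) and day 15 has 2 (PWD15 captures 1 and 2). The capture is the replicate here. No label says that captures came from different mice, so p-values measure the spread between captures, which may be technical.

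Myofibroblasts are the fibroblasts that close a wound. They build bundles of smooth muscle actin and myosin that pull on the surrounding collagen, and they secrete much of the scar matrix. As a wound matures, this contractile apparatus is normally taken down while collagen continues to be deposited and crosslinked. The genes of smooth muscle contraction are classic targets of serum response factor, which binds a DNA motif called the CArG box.

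The promoters of Acta2, which encodes smooth muscle actin, and Myl9, which encodes the regulatory light chain of myosin, are shown because the contractile genes made up one of the gene groups with the largest share of members lower at day 15. Each window runs from 250 bases before to 50 bases after the RefSeq gene start in GRCm38.p6. The Acta2 window is chr19:34255324-34255623 on the minus strand and the Myl9 window is chr2:156775214-156775513 on the plus strand, with the CArG box in capitals.
Acta2: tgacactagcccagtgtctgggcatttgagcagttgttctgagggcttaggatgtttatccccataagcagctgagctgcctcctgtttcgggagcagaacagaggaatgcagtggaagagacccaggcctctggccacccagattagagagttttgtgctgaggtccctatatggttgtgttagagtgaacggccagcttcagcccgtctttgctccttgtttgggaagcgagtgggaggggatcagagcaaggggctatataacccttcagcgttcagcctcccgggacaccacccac
Myl9: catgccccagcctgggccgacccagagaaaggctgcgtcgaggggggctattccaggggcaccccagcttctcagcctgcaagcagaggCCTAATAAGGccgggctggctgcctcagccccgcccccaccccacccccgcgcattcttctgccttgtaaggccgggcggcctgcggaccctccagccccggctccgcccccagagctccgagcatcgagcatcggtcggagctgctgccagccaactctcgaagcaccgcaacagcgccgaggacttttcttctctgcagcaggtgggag
The Myl9 window held 1 exact CArG box, starting 161 bases before the gene start, and the Acta2 window held 0 in these letters. Only exact matches were sought, so a box that differs by 1 letter was not counted, and the 0 does not show that Acta2 lacks such boxes. Of 23 contractile genes with a promoter in the table, 4 held a box (Cnn2, Myl6, Myl9 and Vcl), as did 535 of all 32851 promoters (1.63%). A match describes the letters only and is neither a binding site nor a cause of the values that follow.

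The captures gave 32, 27 and 19 matrix cells at day 12 and 50 and 22 at day 15. Col1a1 had a median of 7007 FPKM over all matrix cells. Of the cells that met every other limit, the lowest kept had 1011 FPKM of Col1a1 and the only 1 left out for Col1a1 had 505 FPKM. Rgs5 reached 67 FPKM inside the rule, and the nearest cell outside had 115 FPKM. Tyrobp was above 0 in 7 matrix cells, with a highest value of 9.96 FPKM.

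The fibroblast label was checked against genes the rule did not use, leaving Col1a1, Rgs5 and Tyrobp out of the marker lists. Dcn (decorin) was above 0 in every matrix cell of the 5 captures, and Lum (lumican) was above 0 in all but 2 of the 27 cells of PWD12 capture 2. All 7 remaining fibroblast markers were above 1 FPKM in every capture. Myeloid markers summed to 18.7, 11.3 and 124 FPKM in the day 12 captures and to 67.2 and 19.2 FPKM at day 15, so that PWD12 capture 3 and PWD15 capture 1 held most of this RNA. In PWD12 capture 3, 7 of the 13 myeloid markers were above 1 FPKM, led by Wfdc17, Lyz2, C1qc and Ctss. These means rested on few cells. Over all matrix cells of the 2 days, C1qc was above 0 in 1 cell, Wfdc17 in 3, Ctss in 8 and Lyz2 in 10. Mural markers summed to at most 19.5 FPKM and endothelial markers to at most 7.48 FPKM in any capture of the 2 days.

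Day 15 cells were shallower and held fewer genes. The median number of genes above 0 came to 6233, 6259 and 6060 at day 12, against 5465 and 4857 at day 15. The files hold no counts, and the fragments per cell, estimated from the smallest steps between FPKM values, had capture medians of 1969987, 1171139 and 1256056 at day 12 and 973351 and 978658 at day 15. In cells of like estimated depth, between 700000 and 1500000 fragments, the medians were still 6317, 6216 and 6073 genes at day 12 (5, 13 and 11 cells) and 5486 and 4894 genes at day 15 (30 and 19 cells). Cells with at least 10 FPKM of Mki67 or Top2a, genes of dividing cells, numbered 4, 5 and 0 at day 12 and 9 and 1 at day 15.

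The captures also differed in the sex of the cells they held. At least 10 FPKM of RNA from the Y-linked genes Ddx3y, Eif2s3y, Kdm5d and Uty was found in 10, 0 and 13 matrix cells of the day 12 captures and in 7 and 0 at day 15. Xist, the RNA of the silenced X chromosome, reached 10 FPKM in 6, 15 and 5 cells at day 12 and in 18 and 9 cells at day 15, and no cell had both. PWD12 capture 2 and PWD15 capture 2 thus held no cell with Y-linked RNA at this level. The part of depth, gene number, sex and myeloid RNA in the differences that follow was not tested beyond the values given.

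Expression was compared on 2 scales, of which the first was the planned test and the second an alternative to it. The first was log2 of a capture's mean FPKM over its matrix cells plus 1, and a difference on it is called a difference of capture means. The second was the mean over cells of log2(FPKM + 1), called the per-cell scale, which gives less weight to a few very high cells and more to the number of cells with the gene. limma was fitted on all 7 captures of the series, in which the day 21 captures only add to the estimate of spread. On capture means, 0 of 13597 genes tested passed an adjusted p of 0.05 (0.0% called), and 791 genes (5.82%) had an unadjusted p below 0.05. On the per-cell scale 42 genes passed (0.309%), 8 higher at day 15 (0.0588%) and 34 lower (0.25%). All 42 had the same sign on both scales, and their differences on the per-cell scale ranged in size from 1.53 to 4.39. Their adjusted p on capture means ran from 0.0555 to 0.897.

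These 42 calls depended on every capture. With any 1 of the 5 captures left out, 0 genes passed on the per-cell scale, and 0 passed in cells of like depth. The count on that scale was also 0 without the variance trend and with only the 5 captures of the 2 days. The median of all genes was -0.12 on capture means and -0.19 on the per-cell scale, which is the level against which the list medians below stand. For list medians in cells of like depth that level was 0.098 on capture means and -0.16 on the per-cell scale. With quantile normalization it was 0.0045 on capture means. Genes called only on the per-cell scale were picked out with their values already known.

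**Figure D1:**
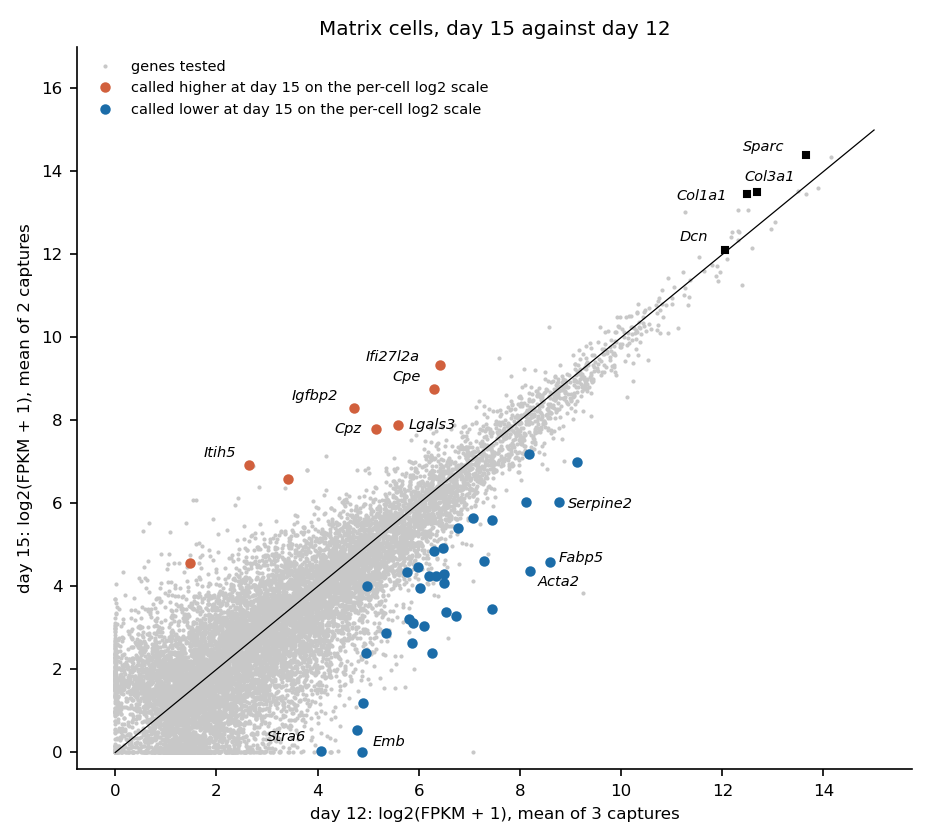
Each point is 1 of 13597 genes, with the mean of log2(FPKM + 1) over 3 day 12 captures on the x axis and over 2 day 15 captures on the y axis, and the line marks equality. Coloured points are the 8 genes called higher and the 34 called lower at day 15 on the per-cell scale, and black squares are 4 abundant matrix genes.

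Acta2 was the contractile gene with the widest gap between days. Its capture means were 370, 573 and 118 FPKM at day 12 and 29.6 and 12.9 FPKM at day 15. It was above 0 in 23 of 32, 21 of 27 and 12 of 19 cells at day 12, against 12 of 50 and 2 of 22 cells at day 15. Every day 12 capture was thus above both day 15 captures, in level and in the share of cells with the gene. The difference of capture means was -3.83 ± 0.68 (SE, log2; limma adjusted p = 0.273), and on the per-cell scale Acta2 fell by 4.10 ± 0.60 (limma adjusted p = 0.0014). In cells of like depth the difference of capture means was -4.06. A few day 15 cells kept high Acta2, with a highest value of 1051 FPKM in PWD15 capture 1. The gene lies at chr19:34241090-34255590 on the minus strand.

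Tagln, whose promoter drives the Cre, had capture means of 379, 356 and 231 FPKM at day 12 and 196 and 162 FPKM at day 15. The captures did not overlap, but the difference was smaller than that of Acta2, at -0.82 ± 0.47 (limma adjusted p = 0.858) on capture means and -2.09 ± 0.66 (adjusted p = 0.193) on the per-cell scale. Tagln was still above 0 in 26 of 50 and 12 of 22 day 15 cells. The difference of capture means was -1.44 in cells of like depth.

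Of 26 contractile and myofibroblast genes listed, 23 passed the filter of a mean of 1 FPKM. Both day 15 captures were below all day 12 captures for 12 of the 23, while 13.7% of all genes tested showed this, and above all of them for 3, against 8.55% of all genes. The median difference of capture means over the list was -0.67, and -1.09 on the per-cell scale. With quantile normalization it was -0.55, and in cells of like depth -0.53. Acta2 was the only member called on either scale.

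Tpm1, a tropomyosin that winds along actin, had capture means of 369, 536 and 254 FPKM at day 12 and 98.6 and 128 FPKM at day 15 (difference -1.70 ± 0.41, limma adjusted p = 0.556). Tpm2 had 224, 224 and 285 FPKM against 139 and 140 FPKM. Actn1, the alpha-actinin that crosslinks actin filaments, had 39.8, 72.7 and 56.9 FPKM against 7.04 and 14.8 FPKM, with a per-cell difference of -2.59 ± 0.64 (limma adjusted p = 0.0777). None of the 3 passed the test, and none overlapped between days, while Tpm4 (373, 571 and 277 FPKM against 304 and 346 FPKM) and Cald1 (365, 429 and 215 FPKM against 218 and 290 FPKM) did overlap.

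Cnn1, the smooth muscle calponin, was listed at 0 in every day 15 matrix cell and was above 0 in only 4, 4 and 1 cells of the day 12 captures. Lmod1, a leiomodin that nucleates actin, was likewise rare at day 12 (capture means of 2.33, 8.25 and 1.43 FPKM) and near 0 at day 15. Tagln2, Palld and Cnn3, which are not restricted to smooth muscle, also lay lower in both day 15 captures.

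Not every part of the apparatus was lower. Myh10, a non-muscle myosin heavy chain, had 31.8, 26.7 and 10.5 FPKM at day 12 and 74 and 34.1 FPKM at day 15. Mylk, the kinase that activates myosin, had 14.9, 22 and 28.6 FPKM against 46.4 and 35.8 FPKM. Smtn (smoothelin) was the third member with both day 15 captures above, and all 3 had adjusted p above 0.8 by limma on capture means. Myl9, whose promoter is printed above, overlapped between days at 299, 339 and 159 FPKM against 125 and 179 FPKM. Tpm4 differed by -0.26 on capture means and turned to 0.21 in cells of like depth.

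As a share of each cell's summed FPKM, the contractile list made up 0.693%, 0.758% and 0.506% at day 12 and 0.409% and 0.447% at day 15. Together Col1a2, Col3a1, Sparc and Col1a1, which the rule used, took 4.76%, 3.24% and 4.01% at day 12 and 7.94% and 6.65% at day 15. FPKM values share 1 total within a cell, and the part of the larger share of these matrix genes in the lower contractile values was not tested.

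**Figure D2:**
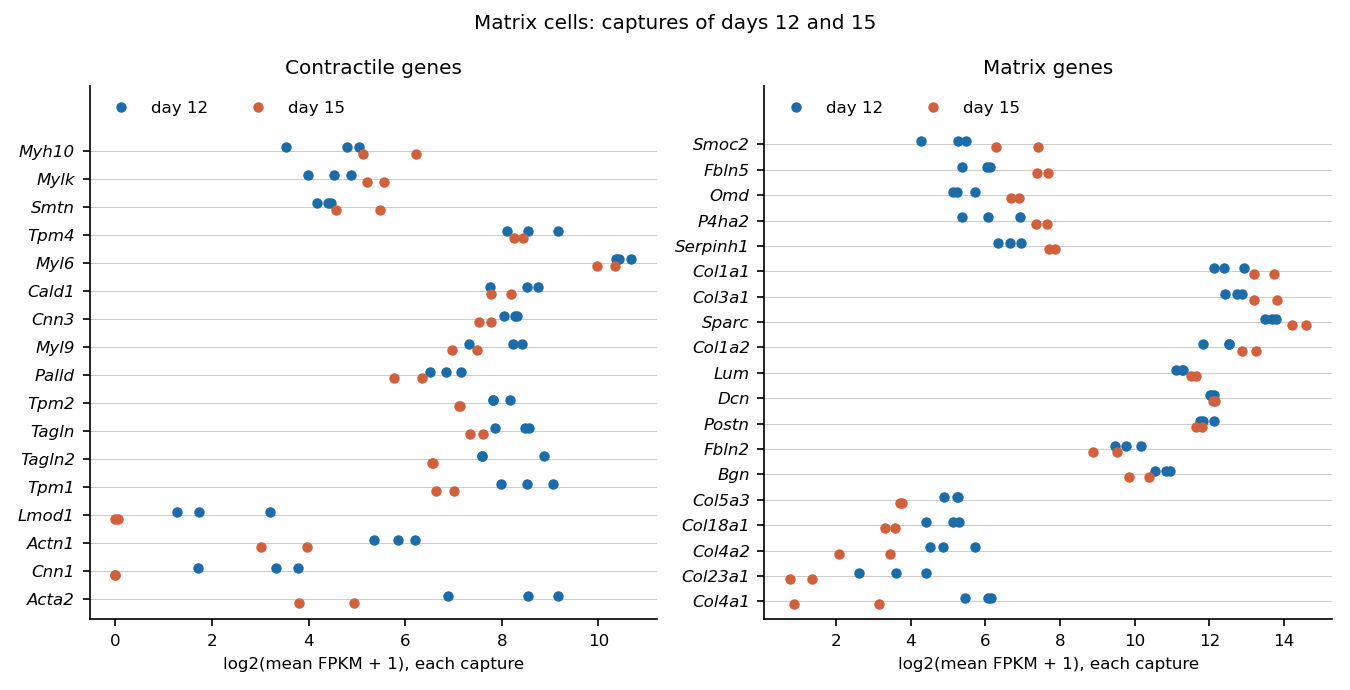
Points are capture means of matrix cells as log2(mean FPKM + 1) on the x axis, blue for the 3 day 12 captures and red for the 2 day 15 captures, with contractile genes on the left and matrix genes on the right. Acta2, Cnn1 and Actn1 are lower in both day 15 captures, Myh10, Mylk and Smtn are higher, and Col3a1 and Sparc are higher in both.

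Fabp5, a fatty acid binding protein on the list of upper and lower dermal wound fibroblast genes, came closest to a call on capture means. It had 361, 388 and 410 FPKM at day 12 and 15.0 and 35.1 FPKM at day 15, a difference of -4.01 ± 0.47 (limma adjusted p = 0.0555). On the per-cell scale it fell by 3.48 ± 0.55 (limma adjusted p = 0.00302). The 3 day 12 captures agreed closely, with an SD of 24.7 FPKM around 386 FPKM, although single cells reached 4207 FPKM and 9 of 27 cells in PWD12 capture 2 held none. In cells of like depth the difference of capture means was -3.45. Fabp5 lies at chr3:10012548-10016607 on the plus strand.

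Crabp1, a retinoic acid binding protein of the same list, which the paper's staining found enriched under the epidermis, showed no such gap. It had 1404, 970 and 1056 FPKM at day 12 and 966 and 1279 FPKM at day 15 (difference -0.02 ± 0.40, limma adjusted p = 1), and the sign of so small a difference turned under several settings. It was above 0 in 44 of 50 and 19 of 22 day 15 cells. Within this list of 26 tested genes, 4 were higher and 4 lower without overlap, near the shares of 8.55% and 13.7% over all genes, and the median was -0.05.

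Other members of the list lay on either side. Dpp4, a surface peptidase of papillary fibroblasts, was above 0 in 0, 1 and 2 day 12 cells and in 14 of 50 and 6 of 22 day 15 cells. Twist1 and Twist2, transcription factors of dermal mesenchyme, had 11.2 to 18.5 and 6.10 to 17.7 FPKM at day 12 and 27.5 to 36.7 and 22 to 43 FPKM at day 15. Mest had 50.6, 63.7 and 225 FPKM at day 12 and 17.2 and 29.2 FPKM at day 15. Sfrp4, a secreted Wnt inhibitor, ranged from 2.66 to 306 FPKM among the day 12 captures alone, so that no difference could be read. None of these genes passed the test on either scale.

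Stra6, the membrane receptor that takes up retinol, was above 0 in 10, 14 and 5 day 12 cells, against 0 of 50 and 1 of 22 cells at day 15, and on the per-cell scale it fell by 1.65 ± 0.34 (limma adjusted p = 0.0319). Rdh10, which oxidizes retinol, had 5.62, 24.9 and 13 FPKM at day 12 and 1.28 and 0.21 FPKM at day 15. In the other direction, Rbp4, the carrier of retinol, had 26.4, 15.3 and 12.1 FPKM against 110 and 180 FPKM, and Cyp26b1, which degrades retinoic acid, had 4.30, 4.70 and 6.18 FPKM against 17.2 and 16.7 FPKM. Of 15 tested retinoid genes 4 were higher and 2 lower without overlap (8.55% and 13.7% of all genes), and the median was 0.09.

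Among genes chosen for the lowest p of all genes, or like F3 added as per-cell calls, several secreted or surface proteins were lower at day 15. Serpine2, a serpin that inhibits thrombin and plasminogen activators, had 395, 556 and 384 FPKM at day 12 and 75.6 and 55.6 FPKM at day 15 (difference -2.74 ± 0.40, limma adjusted p = 0.138), and it fell by 3.18 ± 0.64 per cell (adjusted p = 0.0244). F3, the tissue factor that starts coagulation, had 91.3, 88.6 and 52.8 FPKM against 2.43 and 7.16 FPKM, and it fell by 2.49 ± 0.49 on the per-cell scale (limma adjusted p = 0.0228). Both day 15 captures were below every day 12 capture for both genes. The difference of capture means for F3 was -3.85 in all matrix cells and -1.08 in cells of like depth, where that of Serpine2 was -2.51.

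Emb, a partner of monocarboxylate transporters, was above 0 in 12, 13 and 6 day 12 cells but in only 1 of 72 day 15 cells, where its value was 0.56 FPKM. Sod3, the extracellular superoxide dismutase, was above 0 in 11, 14 and 6 day 12 cells and in 1 cell of each day 15 capture. Both fell on the per-cell scale, Emb by 2.17 ± 0.43 (limma adjusted p = 0.0228) and Sod3 by 1.85 ± 0.40 (adjusted p = 0.0362). Sod3 had a difference of capture means of -4.24 in all matrix cells and of -2.25 in cells of like depth, where that of Emb was -4.72. At day 21 Emb was at 17.3 and 5.62 FPKM. Sulf1, which trims sulfate from heparan sulfate, had 51.2, 64.9 and 59.2 FPKM at day 12 and 9.10 and 6.44 FPKM at day 15. Fcgr2b, an inhibitory receptor for antibody complexes, had 47.4 to 59.9 FPKM at day 12 and 7.05 and 0.105 FPKM at day 15 (difference -4.16, and -2.61 in cells of like depth). The protease inhibitor gene Serpina3g and the LIM-domain gene Crip2 also lay lower without overlap, and none of the 3 passed the test on either scale. The secreted-protein gene 1500015O10Rik fell by 2.44 ± 0.47 on the per-cell scale (limma adjusted p = 0.0228).

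The lysosomal proteases Ctsc and Lgmn, the metal-binding Mt1 and the matrix protein Tgfbi also fell on the per-cell scale, with limma adjusted p between 0.0146 and 0.0472. Ctsc was high in PWD12 capture 2 in particular, at 325 FPKM against 108 and 106 FPKM in the other day 12 captures and 37.2 and 14.6 FPKM at day 15. Its difference of capture means was -2.68 in all matrix cells and -1.77 in cells of like depth. Macrophages also express Ctsc and Lgmn, and the part of myeloid RNA in these values was not tested.

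On the side of day 15, Itih5 had the lowest p. It encodes a heavy chain of the inter-alpha-trypsin inhibitor family, which binds hyaluronan. Its capture means were 5.13, 10.4 and 2.51 FPKM at day 12 and 155 and 93.5 FPKM at day 15, a difference of 4.28 ± 0.62 (limma adjusted p = 0.138). It was above 0 in 17 of 32, 8 of 27 and 4 of 19 day 12 cells and in 49 of 50 and 17 of 22 day 15 cells, and on the per-cell scale it rose by 3.87 ± 0.56 (limma adjusted p = 0.0014). Day 21 captures had 134 and 109 FPKM. In cells of like depth, of which the day 12 captures held 5, 13 and 11, the difference of capture means was 5.11. It lies at chr2:10153571-10256529 on the plus strand.

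Cpe, a carboxypeptidase that trims peptide precursors, had medians over cells of 28.7, 18.4 and 0.63 FPKM at day 12 and of 349 and 357 FPKM at day 15. It rose by 3.44 ± 0.68 on the per-cell scale (limma adjusted p = 0.0235), and the difference of capture means was 2.45 ± 0.40 (adjusted p = 0.196). Cpz, a related secreted carboxypeptidase, rose by 3.97 ± 0.70 (limma adjusted p = 0.0113 on the per-cell scale). Lgals3, the carbohydrate-binding galectin-3, was at 20.2, 75.7 and 67.8 FPKM at day 12 and 209 and 266 FPKM at day 15, and rose by 3.28 ± 0.70 (limma adjusted p = 0.0319 per cell). Its difference of capture means was 2.30 in all matrix cells and 3.77 in cells of like depth. Macrophages also express Lgals3, and the part of myeloid RNA in its values was not tested. The metalloproteinase gene Mmp27 and the receptor gene Tnfrsf19 rose on the same scale, with limma adjusted p of 0.0419 and 0.0319, and in cells of like depth the difference of capture means of Mmp27 was 5.07 (3.16 in all matrix cells). Fabp5, Tgtp2, H2-D1, Ifitm2, Eno1 and Serpina3g belong to families with near-identical genes or processed copies, so their values are uncertain where reads were divided among copies.

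Gja1, the gap junction protein connexin 43, was not called on either scale although its captures were tight, at 210, 198 and 171 FPKM at day 12 and 793 and 664 FPKM at day 15 (difference 1.91 ± 0.31, limma adjusted p = 0.196). Cyp4b1 went from at most 1.62 FPKM in the day 12 captures to 27.2 and 75 FPKM at day 15. Insc, Art3, Asphd2, F13a1 and Accs were likewise low at day 12, with capture means of at most 15.8 FPKM, and higher in both day 15 captures, all with adjusted p above 0.5 by limma on capture means. F13a1 differed by 3.51 in all matrix cells and by 0.74 in cells of like depth, Insc by 4.19 and 2.22, and Gja1 by 2.91 in the latter.

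**Figure D3:**
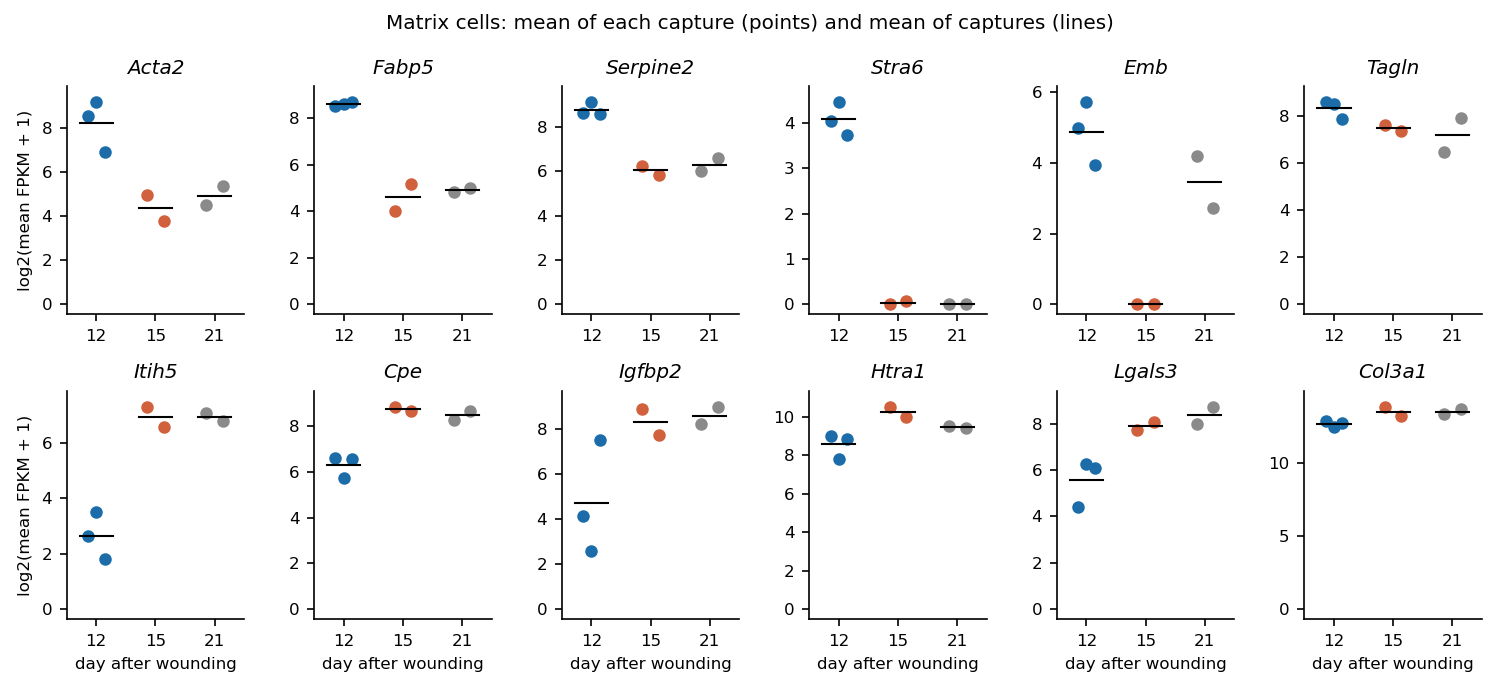
For 12 genes, points show log2(mean FPKM + 1) of the matrix cells of each capture by day after wounding (x axis), and lines show the mean of the captures of a day. Acta2, Fabp5, Serpine2, Stra6, Emb and Tagln lie lower in both day 15 captures, Itih5, Cpe, Igfbp2, Htra1, Lgals3 and Col3a1 lie higher, and the day 21 captures are drawn for reference.

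**Figure D4:**
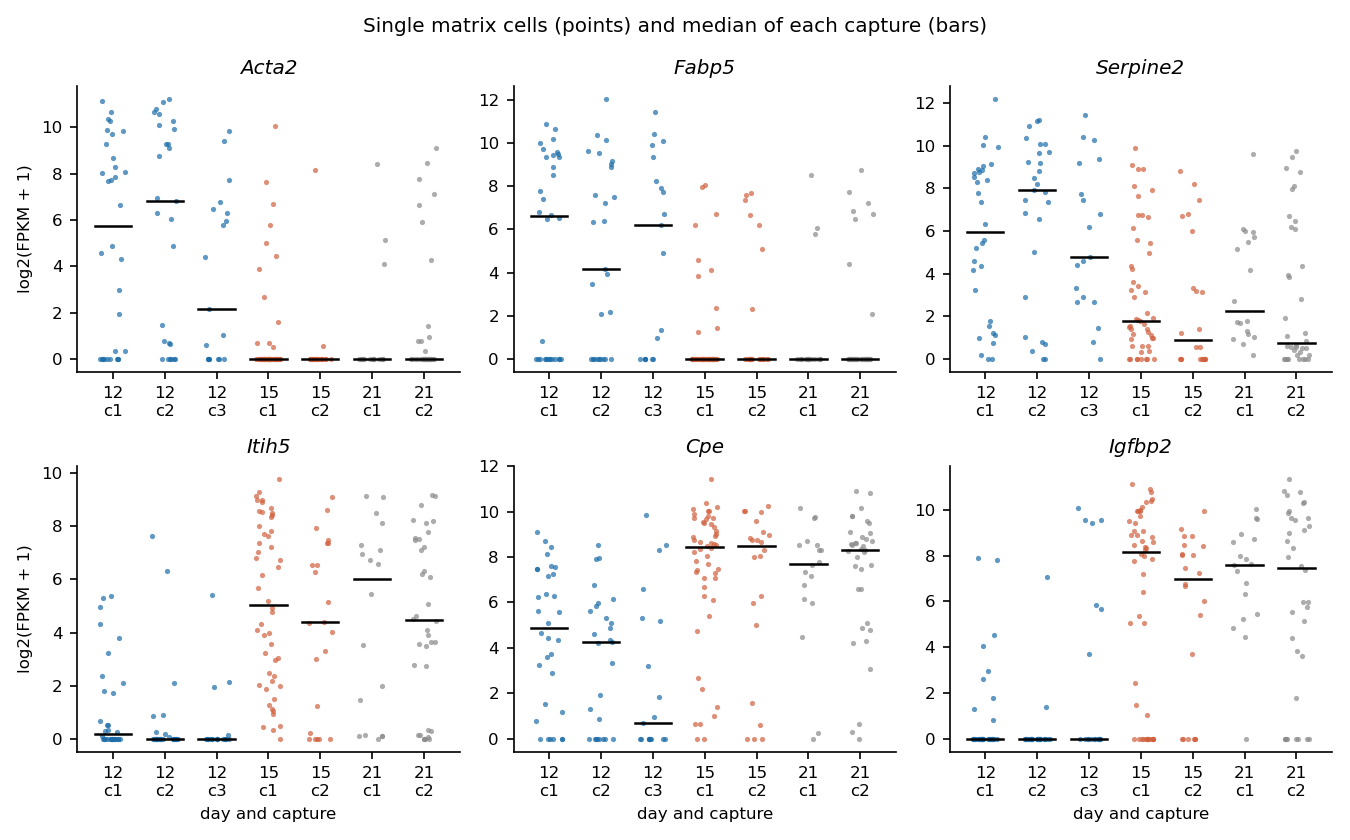
Each point is 1 matrix cell, as log2(FPKM + 1) on the y axis, by day and capture on the x axis, and bars are capture medians. The Acta2 median lies at 0 in both day 15 captures, while Itih5, Cpe and Igfbp2 have medians above 0 there.

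The insulin-like growth factor system, in which binding proteins hold the ligands away from their receptor, had members on both sides. Of the ligands, Igf1 had 640, 517 and 934 FPKM at day 12 and 314 and 237 FPKM at day 15 (difference -1.31 ± 0.34, limma adjusted p = 0.58). Igf2 was above 0 in 4, 2 and 5 day 12 cells, in 1 of 50 and 0 of 22 day 15 cells, and the receptor gene Igf1r had 28.7, 64 and 87.5 FPKM against 12.8 and 15.4 FPKM. Igf2bp2, which encodes a protein that binds Igf2 mRNA, was also lower in both day 15 captures. Igf2 had a difference of capture means of -3.68 in all matrix cells and -1.81 in cells of like depth, and Igf1r of -1.88 and -0.78.

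Igfbp2, a binding protein for these ligands, was the member called. It was above 0 in 9 of 32, 2 of 27 and 7 of 19 cells at day 12 and in 37 of 50 and 16 of 22 cells at day 15, and rose by 4.39 ± 0.70 on the per-cell scale (limma adjusted p = 0.00302). Its capture means were uneven at day 12, with 16.3, 4.97 and 179 FPKM against 467 and 211 FPKM, and the difference of capture means (3.57) was 2.5 without PWD12 capture 2 and 4.96 without PWD12 capture 3. Igfbp5 and Htra1, a secreted protease that cleaves binding proteins, were higher in both day 15 captures, Htra1 with 519, 224 and 466 FPKM against 1461 and 1017 FPKM (difference 1.68 ± 0.39, limma adjusted p = 0.514). Of the 14 tested members 8 were lower without overlap and 3 higher (13.7% and 8.55% of all genes), and the median was -0.56 on capture means and -0.78 per cell.

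The imprinted growth genes share Igf2 with that list. Of 17 tested members 7 were lower and 2 higher without overlap (13.7% and 8.55% of all genes), with a median of -0.57. Cdkn1c, an inhibitor of the cell cycle, had 151, 121 and 298 FPKM at day 12 and 45.6 and 79.3 FPKM at day 15. Meg3, a long noncoding RNA, lay on the other side with 238, 164 and 289 FPKM against 766 and 378 FPKM. No member passed the test on either scale.

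Col1a1 itself was part of the rule and is given without a test, at 7815, 4469 and 5405 FPKM in the day 12 captures and 9427 and 13523 FPKM at day 15. Col3a1, which the rule did not use, had 7446, 5518 and 6853 FPKM against 14504 and 9406 FPKM (difference 0.83 ± 0.24, limma adjusted p = 0.627). Col1a2 had 5939, 3675 and 5957 FPKM against 9673 and 7549 FPKM. Sparc, a collagen-binding glycoprotein and the highest of these, had 14187, 11469 and 13123 FPKM against 24761 and 18994 FPKM (difference 0.75 ± 0.26, limma adjusted p = 0.698). For all of these both day 15 captures were above every day 12 capture, and none of the genes tested passed.

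Without Col1a1, 8 fibrillar collagens were tested, of which 2 were higher and 1 lower without overlap (8.55% and 13.7% of all genes), with a median of 0.31 that was 0.16 per cell. The member that was lower was Col5a3, at 37.3, 37 and 28.9 FPKM against 12.6 and 12.1 FPKM. The proteoglycans lay on different sides. Dcn had 4175, 4208 and 4443 FPKM at day 12 and 4366 and 4510 FPKM at day 15 (difference 0.05 ± 0.22, limma adjusted p = 0.994), Lum was somewhat higher in both day 15 captures (2935 and 3198 FPKM against 2216 to 2529 FPKM), and Bgn (biglycan) was lower (1328 and 918 FPKM against 1484 to 1984 FPKM).

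Col4a1, a chain of basement membrane collagen, had 43.2, 70.1 and 66.6 FPKM at day 12 and 7.85 and 0.83 FPKM at day 15 (difference -3.89 ± 0.77, limma adjusted p = 0.432). Its partner chain Col4a2 had 28, 51.5 and 21.9 FPKM against 9.83 and 3.24 FPKM. Col4a1 is also strong in Rgs5 cells, with 443 to 688 FPKM in the captures compared below, and median values over matrix cells were at most 1.47 FPKM, so that capture means rested on few cells. Col18a1 and Col23a1 were lower in both day 15 captures as well. Over the 17 nonfibrillar collagens tested, 5 were lower and 3 higher without overlap (13.7% and 8.55% of all genes), and the median was 0.02.

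Several genes for proteins that fold and process collagen had higher captures at day 15. Serpinh1, the collagen chaperone HSP47, had 122, 100 and 79.6 FPKM at day 12 and 231 and 209 FPKM at day 15 (difference 1.14 ± 0.39, limma adjusted p = 0.703). P4ha2, a prolyl hydroxylase subunit, had 122, 66.2 and 40.6 FPKM against 161 and 202 FPKM. Of 25 members tested, 6 were higher and 2 lower without overlap (8.55% and 13.7% of all genes), and the median was 0.15. Of the elastic fibre genes, Fbln5, which helps to assemble elastin, had 64.6, 40.2 and 69.2 FPKM against 204 and 167 FPKM, but only 1 of 19 members was higher without overlap and 1 lower, below the shares over all genes.

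Hyaluronan and versican genes other than Itih5 showed smaller gaps. Vcan, the large hyaluronan-binding proteoglycan, had 70.1, 65.6 and 89.7 FPKM at day 12 and 141 and 143 FPKM at day 15, and Has2, a hyaluronan synthase, was below 6 FPKM everywhere. Of 12 tested, Itih5 included, 4 were higher and 1 lower without overlap (8.55% and 13.7% of all genes), with a median of 0.32 on capture means and 0.06 per cell. Metalloproteinases and their inhibitors had a median of 0.49 on capture means and -0.02 per cell, so that the direction depended on the scale. Mmp3 was slightly higher and Mmp2 and Timp1 slightly lower in both day 15 captures, and in cells of like depth the difference was 3.84 for Mmp3, -0.08 for Mmp2 and 0.11 for Timp1. Smoc2, a matricellular protein, had 37.6, 18.2 and 43.6 FPKM against 171 and 77.7 FPKM (difference 1.86, and 4.78 in cells of like depth), while Postn (periostin) overlapped between days.

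Interferon and antigen-presentation genes had the highest median of all lists on capture means, 0.59, with 8 of 27 members higher and 1 lower without overlap (8.55% and 13.7% of all genes). On the per-cell scale the median was 0.22. In cells of like depth it was 0.61 on capture means and turned to -0.09 per cell, where the median of all genes was -0.16. H2-D1 and B2m, the chains of class I molecules, had 97.6 to 148 and 921 to 1064 FPKM at day 12 and 156 to 340 and 1137 to 1833 FPKM at day 15. Ifitm2 was the member that was lower, at 1845, 2018 and 1961 FPKM against 1209 and 1021 FPKM.

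Ifi27l2a, an interferon-induced gene outside that list, rose by 3.30 ± 0.61 on the per-cell scale (limma adjusted p = 0.0153). It had 213, 55.1 and 51.6 FPKM at day 12 and 511 and 819 FPKM at day 15, and was above 0 in 11, 6 and 5 cells against 27 of 50 and 14 of 22. Tgtp2, an interferon-induced GTPase, went from at most 0.876 FPKM to 12.3 and 24.4 FPKM. At day 21 Ifi27l2a was at 109 and 96.0 FPKM.

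Fgf7 and Fgf10, fibroblast ligands for epithelium, were near 0 at day 15, where Fgf7 was above 0 in 2 of 50 and 1 of 22 cells at no more than 6.42 FPKM, after 15.0, 26.7 and 7.32 FPKM at day 12 (difference -3.76 ± 0.86, limma adjusted p = 0.505). In cells of like depth that difference was -1.44. Of 20 PDGF, FGF and HGF genes tested, 5 were lower and 0 higher without overlap (13.7% and 8.55% of all genes). The receptor Pdgfra had 49.5, 54.5 and 42.8 FPKM against 44.8 and 38.2 FPKM. Tgfb2 had 20.1, 58.9 and 21.8 FPKM at day 12 and 2.44 and 9.99 FPKM at day 15. The 25 TGF-beta signalling genes tested had 3 lower and 1 higher without overlap (13.7% and 8.55% of all genes) and a median of -0.06. Of 19 BMP signalling genes tested, 2 were lower and 3 higher without overlap (13.7% and 8.55% of all genes).

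Il1r1, the interleukin-1 receptor, had 54, 154 and 80.2 FPKM against 31.1 and 25.1 FPKM, with a per-cell difference of -2.83 ± 0.67 (limma adjusted p = 0.0679). The acute phase list had 7 of 24 members lower without overlap (13.7% of all genes) and a median of -0.41, which turned to 0.41 in cells of like depth. Immediate early genes, which rise with cell handling, had a median of 0.39 on capture means and 0.02 per cell. Without overlap, 0 of 26 were higher and 2 lower (8.55% and 13.7% of all genes).

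Most metabolic lists had medians below that of all genes. Cholesterol and fatty acid synthesis had 7 of 22 members lower and 0 higher without overlap (13.7% and 8.55% of all genes; median -0.40), among them Hmgcs1 with 21.8, 97.4 and 63.4 FPKM against 15.2 and 16.1 FPKM. Glycolysis and hypoxia genes had a median of -0.46, and of -0.05 in cells of like depth, with Eno1 and Aldoa lower in both day 15 captures. Without overlap, 3 of the 26 tested were lower and 0 higher (13.7% and 8.55% of all genes). Nuclear oxidative phosphorylation genes had a median of -0.25 on capture means, -1.15 per cell and 0.02 in cells of like depth on capture means, and cytosolic ribosomal protein genes had -0.10 on capture means and -0.64 per cell. In cells of like depth the per-cell medians of these 2 lists were -0.68 and -0.39. The part of the lower gene number of the day 15 cells in them was not tested.

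The adipogenic list had a median of -0.67 over 13 tested genes, with 4 lower without overlap (13.7% of all genes). Pparg and Adipoq, the regulator and the secreted product of fat cells, were listed at 0 in the mean of every capture. Fabp4, the fat cell fatty acid binding protein, had 21.5, 27.6 and 0.229 FPKM at day 12 and 0.635 and 0 FPKM at day 15, and so overlapped. Lpl and Plin2 had 75.2 to 96.7 and 59.1 to 86.0 FPKM at day 12 and 52.9 to 65 and 27.2 to 58.3 FPKM at day 15.

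**Figure D5:**
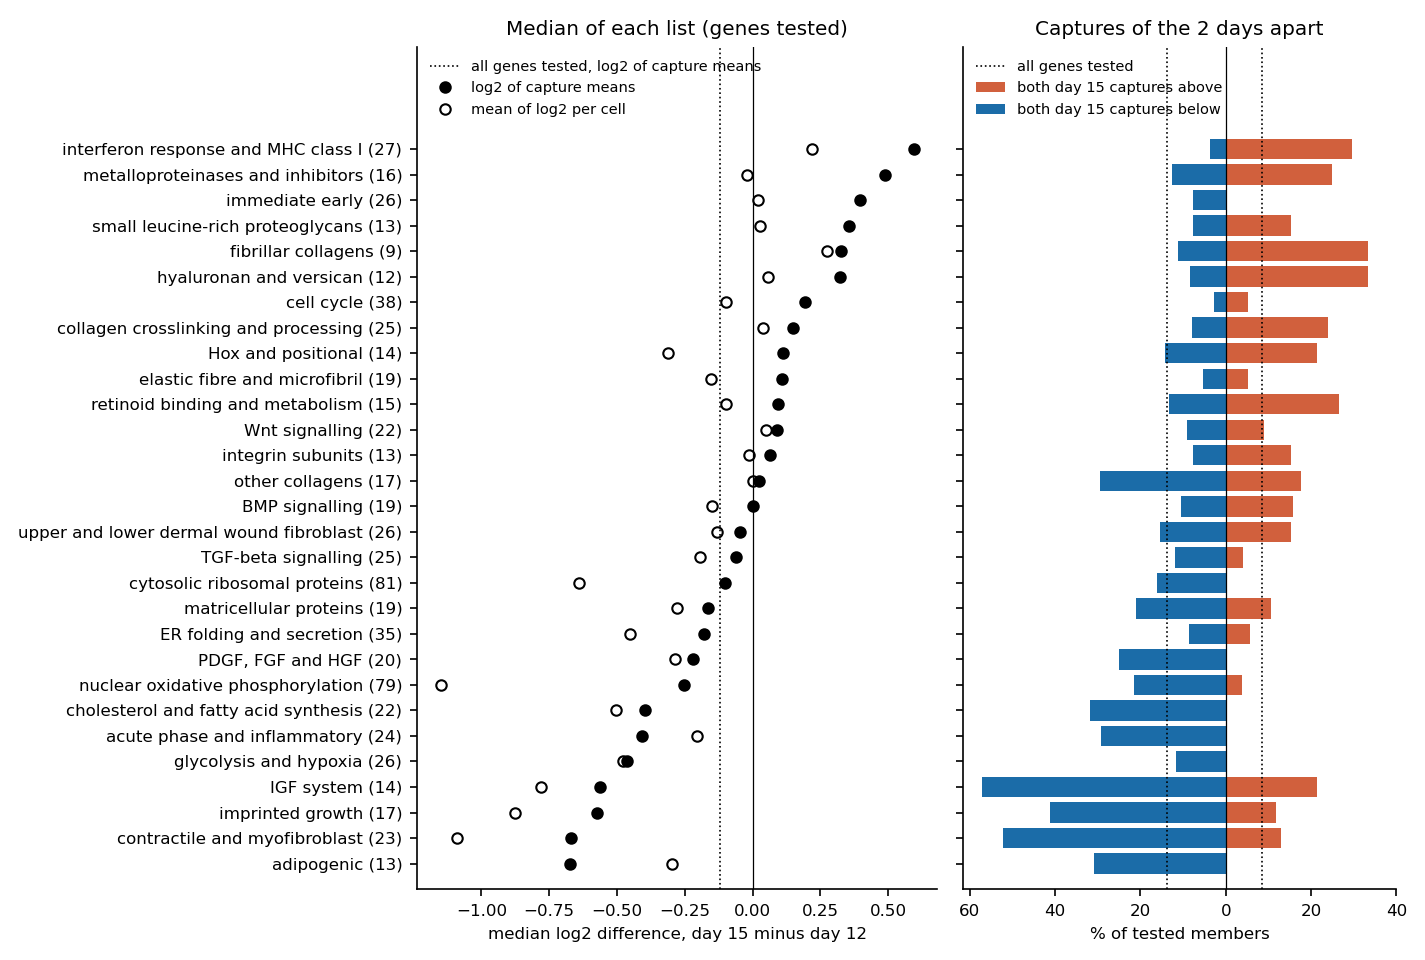
The left panel gives the median log2 difference (day 15 minus day 12) of each gene list with its number of tested genes (Col1a1, which the rule used, is among the fibrillar collagens), on capture means (filled) and per cell (open), and the dotted line marks all genes at -0.12. The right panel gives the percentage of tested members whose captures did not overlap, higher in red and lower in blue, with dotted lines at 8.55% and 13.7% for all genes.

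To ask whether a difference was particular to matrix cells, the day difference was compared with that of Rgs5 cells from the same captures. Rgs5 cells held at least 100 FPKM of Rgs5 under the same limits on Tyrobp, mitochondrial share and gene number, with no limit on Col1a1. They numbered 9, 8 and 16 in the day 12 captures and 21 in PWD15 capture 1. PWD15 capture 2 had 1 such cell and could not enter, so that the test rests on a lone day 15 capture, which was assumed to vary like the others. Of 15131 genes 0 passed (0.0%), and 1214 had an unadjusted p below 0.05 by limma.

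Acta2 in Rgs5 cells had 851, 1245 and 880 FPKM at day 12 and 1770 FPKM at day 15, so that it lay above the day 12 captures where matrix cells lay below, and the difference between the changes was -4.12 ± 1.07 (log2; limma adjusted p = 0.564). Fabp5 had 280, 203 and 68.7 FPKM in Rgs5 cells at day 12 and 249 FPKM at day 15, with a difference between the changes of -5.24 ± 1.15 (limma adjusted p = 0.529). Itih5 had 14.9, 15.8 and 18 FPKM against 28.1 FPKM there (3.88 ± 1.00, limma adjusted p = 0.564). None of the differences was thus shown to be particular to matrix cells.

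The share of cells that met the matrix rule came to 59.3%, 41.5% and 47.5% at day 12, against 59.5% and 66.7% at day 15. The means were 49.4% ± 9.02 (SD, n = 3) and 63.1% ± 5.05 (SD, n = 2), a difference of 13.7 percentage points (exact permutation test, two-sided, p = 0.2, where 0.1 is the smallest p that 10 assignments allow). Of the 126 cells outside the rule, 65 had Rgs5 at or above its limit and 29 had Tyrobp at or above its limit. Sorting and chip loading set which cells were captured, so the share describes the chips and not the wound.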

How the data were processed

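Single tdTomato-high wound cells were profiled by full-length RNA-seq on Fluidigm C1 chips. The deposited files hold FPKM values per gene and cell, which the authors made with Bowtie 1.0.0 and RSEM on mm10 with GENCODE annotation; the normalization and batch correction that the study applied later are not in them. The files hold no counts, and 0 columns of per-sample values were left unused. Of 50600 gene identifiers, 50376 were matched to symbols in GENCODE M21 of the same genome (GRCm38).

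Cells were assigned to day and capture from the titles, which for 1 day 12 capture differ from a matrix named in its description. The members and gene lists were chosen with earlier results of these data known. FPKM was averaged over the matrix cells of each capture, genes whose average across the 7 captures reached 1 FPKM were kept, and log2(mean + 1) was fitted with limma 3.58.1 in R 4.3.3 (variance trend, two-sided, Benjamini-Hochberg adjusted over all genes tested, called below 0.05). As an alternative, the same fit was run on the mean over cells of log2(FPKM + 1). These differences understate the change of low genes. The fit was also run on simulated data, the outcome of which is not given here. Depth per cell was estimated from the smallest FPKM steps of 9426 genes with 1 transcript of at least 1000 bases, assuming fragments of 300 bases, and only capture medians are given, so values near 0 have no stated counting error. The share of matrix cells was compared by an exact permutation test.

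Genes were named by a rule: protein-coding genes of lowest p whose captures did not overlap (12 in each direction), the 3 of lowest p and 3 of highest level in each list, and wound fibroblast and sex-linked markers. Genes called on the per-cell scale were added afterwards. Further list members, among them Twist1, Twist2, Cyp26b1, Igf1r, Col5a3, Cnn1 and Myh10, were named outside the rule with their values known. Promoters came from the RefSeq table of GRCm38.p6, with the CArG box sought by its letters, which are the same on both strands. Other filters, pseudocounts, scalings, weights and left-out captures were tried. The authors kept only chambers that held a single cell under the microscope, and no doublet caller was run here.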

Additional observations from a re-analysis of the deposited data

How the results depend on the processing

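On capture means, 0 genes passed with 500 FPKM of Col1a1, 4000 genes, like depth, rescaled cells, no filter, no variance trend, only the 5 captures, a pseudocount of 0.1, quantile normalization, the replicate block or any capture left out. A Col1a1 minimum of 2000 FPKM gave 2 genes, a minimum mean of 10 FPKM gave 3, rescaled protein-coding nuclear genes gave 3, and a mitochondrial limit of 10%, a pseudocount of 10 and weights by cell number gave 1 each. The mean of log2 per cell gave 42. That count was 42 with a Col1a1 minimum of 500 FPKM and 127 with weights (18 higher, 109 lower). It was 20 with quantile normalization (15 higher and 5 lower, against 8 and 34), 13 of them among the 42. It was 8 with the 10% mitochondrial limit, 7 with the 2000 FPKM minimum, and 2 with 4000 genes. It was 0 in cells of like depth, without cycling cells, without the variance trend and with only the 5 captures, and 0 to 0 without any of PWD12 replicates 1, 2 and 3 and PWD15 replicates 1 and 2. The cause of these changes was not tested.

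With the replicate block 0 genes passed on either scale. The deviations of captures that share a number from their day means had correlations of -0.02 to 0.02. With so few captures per day, these values cannot decide whether the numbers pair the captures. For the test against Rgs5 cells, a higher minimum number of Rgs5 cells kept the same captures. It repeated the main fit and was no separate check. With a larger pseudocount, the median size of the difference between the changes over all genes was 0.48, against 1.12 in the main fit. The difference in share was 14.3 and 13.6 percentage points with the lower and higher Col1a1 minimum.

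Crabp1, near 0, turned positive with 4000 genes (0.044), in cells of like depth (0.48), with rescaled cells (0.015), per cell (0.017), with rescaled protein-coding genes (0.066), with quantile normalization (0.039) and without cycling cells (0.23), and ran from -0.23 to 0.18 with a capture left out. Tpm4 turned to 0.21 in cells of like depth and ran from -0.51 to 0.014 with a capture left out, and Timp1 turned to 0.11 in cells of like depth. Pdgfra turned to 0.21 with the 10% mitochondrial limit. Xist ran from -0.16 to 0.62 with a capture left out. Kdm5d turned to -0.020 with 4000 genes, -0.29 in cells of like depth, -0.21 per cell and -0.57 with a pseudocount of 0.1, and ran from -1.41 to 1.51. Of the values of named genes under alternatives, 2956 kept their direction and side of the threshold, 35 kept the direction and passed it, and 20 turned. Cells were shallower at day 15, and a value of 0 there has no counting limit, since the files hold no counts.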
